A study of Mus musculus with 8 samples.

Results

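The 10 genes described here, Hif1a, Hilpda, Bnip3, Egln3, Ero1l, P4ha1, Higd1a, Mxi1, Ndrg1 and Ankrd37, belong to the cellular response to low oxygen. They were taken by symbol from the 32285 genes of 4 single-cell libraries of mouse eye leukocytes, and all 10 were found. Cells were CD45+ leukocytes sorted from retina and choroid of female mice 10 to 12 weeks old, and RNA was counted as unique molecular identifiers (UMIs), that is, distinct captured transcripts. There were 4 groups, namely control and laser eyes of wild-type (WT) mice and control and laser eyes of Nr4a1-/- mice. Laser eyes received 8 burns each, which rupture Bruch's membrane under the retina and start choroidal neovascularization, and were taken on day 3. Control eyes received no laser, although a label field of the same samples calls them sham. WT mice were C57BL/6J. The labels give the same strain for Nr4a1-/- mice, which lack the nuclear receptor Nr4a1 in all cells and therefore most non-classical monocytes, while the methods give a B6;129S2 strain, so genotype and strain background cannot be told apart. Eyes of 22 mice were pooled for a control library and eyes of 11 to 12 mice for a laser library. Each group was therefore 1 library, no difference between groups could be tested against animals, and no p-value was computed. Every interval below is a 95% interval for counting error only.

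Cells regulate most of these genes through hypoxia-inducible factor (HIF), a dimer of an oxygen-sensitive alpha subunit and the stable subunit Arnt. With oxygen present, prolyl hydroxylases of the Egln family mark the alpha subunit, the von Hippel-Lindau protein binds the mark, and the proteasome degrades the subunit. When oxygen is scarce the alpha subunit accumulates, enters the nucleus and, with Arnt, binds the core letters ACGTG or GCGTG near its target genes. Hif1a encodes the best known alpha subunit, whose level is set largely after transcription, so its mRNA is not a reading of HIF activity. In leukocytes, cytokines and bacterial products can also stabilize HIF with oxygen present. The choroid supplies the outer retina with oxygen, and HIF drives Vegfa, the main growth factor of choroidal neovascularization. Among the 10 genes, Egln3 is itself a prolyl hydroxylase that feeds back on HIF. Hilpda blocks the lipase ATGL on lipid droplets, Bnip3 takes part in mitophagy, and Higd1a sits in the inner mitochondrial membrane. Ero1l (Ero1a in RefSeq) oxidizes the partner enzymes that form disulfide bonds in the endoplasmic reticulum, and P4ha1 is the catalytic subunit of collagen prolyl 4-hydroxylase. Mxi1 competes with Myc for their shared partner Max. Ndrg1 is a cytosolic protein induced by cell stress, and Ankrd37 is an ankyrin-repeat protein.

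The letters that HIF binds are shown first, because they are what these genes share in their promoters. Windows from 250 bases before to 50 bases after each annotated start were read from RefSeq on GRCm38.p6 for 9 members, with 12 starts among them. ACGTG or its reverse complement CACGT lay in a window of 9 of 9 members and in 10 of 12 windows. Over all 32851 mouse windows 19.6% held it, and over all 27025 genes 21.8% did. GCGTG or its reverse complement CACGC lay in windows of 6 of 9 members, against 35.2% of all genes. Hif1a and Bnip3 held ACGTG and CACGT overlapping as CACGTG, which is also the letters Myc and Max bind and which 7.15% of all windows held. The members other than Hif1a, which encodes a HIF subunit, were known HIF targets when they were listed. The count therefore describes genes already tied to HIF, and a match is not a measured binding site. Below is 1 example for each of the members whose values are described most fully and whose window is at hand, with 10 bases on either side, 5′ to 3′ on the strand of the gene, and the core letters in capitals.
Hilpda, chr6:29272573-29272597, plus strand, 43 bases before a start: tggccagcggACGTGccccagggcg
Mxi1, chr19:53329337-53329361, plus strand, 66 bases before a start: tcggcacccgACGTGcactggcggg
P4ha1, chr10:59323270-59323294, plus strand, 16 bases before the start: tgacagagcgCACGTagcgagggct
Hif1a, chr12:73907787-73907811, plus strand, 70 bases before the start: gctgagagcaACGTGggctggggtg
Ero1l, chr14:45318621-45318645, minus strand, 63 bases before the start: cgcgccgctgCACGTccgcagggga
Higd1a, chr9:121857852-121857876, minus strand, 70 bases before the start, with the other core: ggtctagcctGCGTGcgtggcgttc
Ankrd37, chr8:45999842-45999866, minus strand, 6 bases before the start: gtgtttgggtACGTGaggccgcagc
The 10 genes are spread over 9 chromosomes of mm10, the build of the files, and all code for protein in the GENCODE annotation of that build. Hif1a (ENSMUSG00000021109, chr12:73901375-73947530, plus strand) lies wholly inside Gm15283 (ENSMUSG00000087700, chr12:73843039-73949814), an antisense gene on the minus strand. Whether reads were counted by strand is not given in the sources used here, so reads of Hif1a and Gm15283 may have been shared. Hilpda (ENSMUSG00000043421) occupies chr6:29272488-29275446, Mxi1 (ENSMUSG00000025025) chr19:53310518-53375810, and Ndrg1 (ENSMUSG00000005125) chr15:66929318-66969640 on the minus strand. P4ha1 (ENSMUSG00000019916) occupies chr10:59323296-59373304.

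The targeted gene was read first. Over all kept cells Nr4a1 stood at 310 and 278 CPM (counts of a gene per 1000000 UMIs) in control and laser eyes of WT mice, and at 90.7 and 54.9 CPM in those of Nr4a1-/- mice. UMIs come from the 3′ end of transcripts, which may lie outside the deleted part, so these reads do not check the deletion. Non-classical monocytes did follow the genotype label, with 231 and 153 cells in the WT libraries and 3 and 1 in the Nr4a1-/- libraries. The libraries held 1649 to 3791 kept cells with a median of 3676 to 7618 UMIs per cell, and the Nr4a1-/- laser library was the smallest and shallowest. Any pair of libraries shared 1 to 7 cell barcodes. Cells were assigned to a lineage by their marker genes, and a lineage name below stands for cells resembling that type by those markers. No lineage was assigned to 12.4% to 26.1% of a library's cells. Antibody tags read from the same cells went with the gate, since Ly-6G took a median of 3.66% of tag counts in neutrophils and CX3CR1 took 7.62% in microglia. Summed markers of photoreceptors reached 45.8 CPM in any lineage and library, of retinal pigment epithelium 41.2 CPM and of melanocytes 8.23 CPM. Summed markers of endothelium lay between 13.1 and 307 CPM, highest in B cells of Nr4a1-/- laser. There only 1 of the 4 endothelial markers had any UMI, so that sum is the level of a single gene. Summed markers of fibroblasts reached 92.0 CPM. Neutrophil markers outside neutrophils reached 1828 CPM, in WT control non-classical monocytes. The part of these other cells in the results was not tested.

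The Nr4a1-/- control library stood apart in the heat shock gene Hspa1a, a chaperone that rises when cells are stressed. It held 577 CPM in B cells, 1148 CPM in cDC2 and 1301 CPM in macrophages there, against 5.82, 42.3 and 220 CPM in WT control. Hspa1a was called lower after laser in 8 of 9 Nr4a1-/- lineages and 1 of 10 WT lineages, and its partner Hspa1b in 8 of 9 and 2 of 10. Each Nr4a1-/- ratio below is taken against this control library, and the part of the heat shock difference in those ratios was not tested. Both genes were singled out after their values were seen. The deposited name of the Nr4a1-/- control library also carries a different series number from those of the other libraries. What that number marks is not given in the sources used here. Any effect of it on the Nr4a1-/- ratios cannot be told apart from that of laser.

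Each of the 10 genes had its own order of lineages. Levels are given as CPM of the UMIs summed over the cells of a lineage in a library, and they are compared between lineages within a gene, since a 3′ count is not scaled to transcript length. Neutrophils led for Bnip3 in all 4 libraries, at 52.6 CPM without and 28.9 with laser in WT, and 44.2 and 30.6 in the same order in Nr4a1-/-. Only in WT control did the neutrophil interval lie above that of the next lineage, microglia at 16.5 CPM. Neutrophils also led for Egln3 in every library, at 15.3 to 18.9 CPM, but from 2 to 11 UMIs, and no neighbour in that order was apart from them. Natural killer (NK) cells led for Higd1a throughout, at 154 and 145 CPM in WT control and laser and 154 and 162 CPM in the Nr4a1-/- libraries. Their interval lay above the next lineage in 3 libraries and overlapped it in Nr4a1-/- laser.
Microglia led for P4ha1 in 3 libraries, at 147 and 106 CPM in WT control and laser and 163 in Nr4a1-/- control. In Nr4a1-/- laser they stood at 107 CPM, behind a set of laser macrophages at 128 CPM that is described further on. T cells led for Ero1l in 3 libraries, at 39.2, 57.6 and 44.2 CPM, without standing apart from the next lineage in any of them.
Non-classical monocytes and neutrophils held the most Mxi1 in the WT libraries. Non-classical monocytes stood at 360 CPM in WT control and 355 in WT laser, and neutrophils at 256 and 340 CPM. The intervals of these lineages were apart in WT control and overlapped in WT laser. In Nr4a1-/- control, where non-classical monocytes were lacking, neutrophils led at 376 CPM, ahead of NK cells at 117 CPM with intervals apart.
Hif1a was well detected in every lineage. In WT laser it ran from 281 CPM in microglia and 258 CPM in neutrophils down to 81.3 CPM in conventional type 1 dendritic cells (cDC1), and in WT control neutrophils led at 263 CPM. The first and second lineages did not differ beyond their counting intervals in any of the 4 libraries. Hilpda was highest in neutrophils in WT control, in conventional type 2 dendritic cells (cDC2) in WT laser and Nr4a1-/- control, and in Nr4a1-/- laser in the same set of laser macrophages as P4ha1. Among lineages with at least 50 cells in a library, Ndrg1 was highest in neutrophils in both controls. In WT laser cDC2 led, followed by cDC1, and in Nr4a1-/- laser classical monocytes led. Microglia were at the low end for Ndrg1, at 1.76 CPM in WT control and 4.72 CPM in WT laser. Ankrd37 was near the detection floor in most lineages, with at most 18.6 CPM, in WT laser neutrophils, from 9 UMIs.

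**Figure D1:**
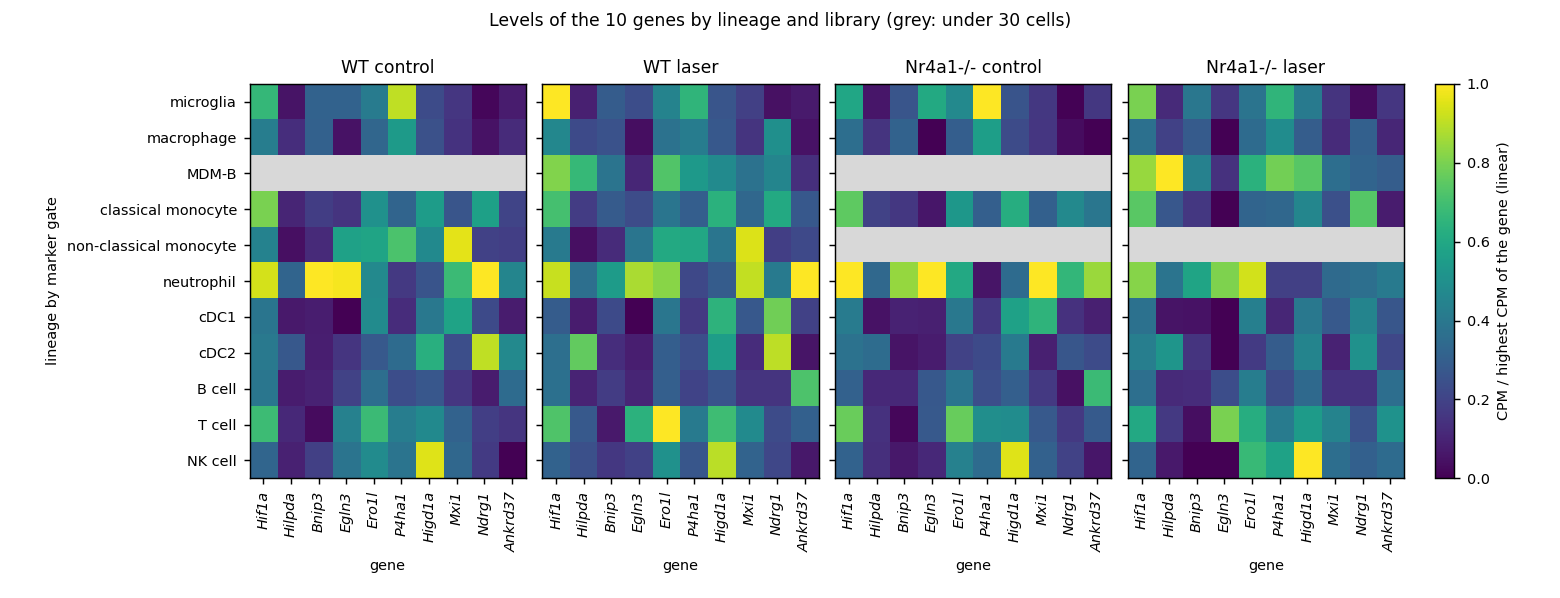
Heat map of the 10 genes (columns) in 11 lineages (rows) of each library, with CPM divided by the gene's highest CPM on a linear scale from 0 to 1 and grey where a lineage had under 30 cells. The brightest cells fall in different lineages for different genes, such as microglia for P4ha1 at 163 CPM, NK cells for Higd1a at 162 CPM and neutrophils for Mxi1 at 376 CPM.

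Laser and control were then compared within each lineage and genotype that had at least 30 cells in both libraries, which gave 10 lineages in WT and 9 in Nr4a1-/-. A gene was called higher or lower where it changed at least 1.5-fold with an interval off 1 and had at least 20 UMIs over both libraries. Of 145 gene and lineage pairs with enough UMIs, 21 were higher after laser, 6 were lower and 118 were not called. With 5 to 10 members in a comparison each count rests on few genes, and it is set beside the share of all tested genes called by the same rule. In microglia 2 of 9 members were called in WT and 3 of 8 in Nr4a1-/-, where 21.5% of all genes were called in WT and 21.5% in Nr4a1-/-. Macrophages had 2 of 8 and 1 of 8, beside 20.8% of all genes in WT and 16.6% in Nr4a1-/-. Classical monocytes had 1 of 9 and 1 of 8, against 10.5% and 7.74% of all genes. Non-classical monocytes had 0 of 8 in WT, against 6.18%. Neutrophils had 1 of 8 and 1 of 5, against 27.9% and 33.2%, the highest shares of any lineage. cDC1 had 3 of 7 and 2 of 6, against 17.8% and 14.7%, and cDC2 had 2 of 7 and 1 of 6, against 13.1% and 15.3%. B cells had 2 of 10 and 0 of 7, against 6.96% and 7.78%. T cells had 2 of 9 and 1 of 7, against 12.7% and 13.1%. NK cells had 1 of 8 and 1 of 7, against 7.26% and 7.98%.
No lineage changed most of its members. The members' median log2 ratio of laser to control was between -0.15 and 0.54 over the WT lineages, and the highest of these was in T cells, where the median of all tested genes was 0.08. In Nr4a1-/- it was between -0.86 and 0.28, and the lowest was in neutrophils, from 5 members. The median of all genes itself stood away from 0 in WT macrophages, at -0.12, and in WT neutrophils, at 0.15 on the log2 scale, so ratios in these lineages are to be read against those shifts. Hilpda and Ndrg1 made up most of the calls: Hilpda was higher in 6 of 10 WT lineages and 1 of 8 Nr4a1-/- lineages with enough UMIs, and Ndrg1 in 3 of 10 and 4 of 7.
Of the 27 calls, 8 kept the fold and an interval off 1 under every alternative run. These were Hilpda in WT cDC2 and NK cells, Ndrg1 in WT macrophages, cDC1 and neutrophils, Mxi1 in cDC1 of both genotypes, and Mxi1 in Nr4a1-/- neutrophils. The others ended under at least 1 alternative. Some of these alternatives, but not all, are named where the calls are described.

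Ndrg1 showed the largest ratio of any member with enough UMIs, in macrophages of both genotypes. It stood at 4.997 CPM (control) and 52.4 CPM (laser) in WT and 3.29 and 32.4 CPM in Nr4a1-/-, from 11, 227, 4 and 32 UMIs. Both laser libraries were high and both controls low, and the intervals of laser and control did not overlap in either genotype. Laser was 10.5-fold above control in WT (5.75 to 21.3) and 9.83-fold in Nr4a1-/- (3.49 to 38.3). With each cell thinned to 2000 UMIs, the share of macrophages with an Ndrg1 UMI was 1.095% and 7.16% in the WT libraries, control first, and 1.29% and 3.89% in the Nr4a1-/- ones. Without thinning these shares were 2.71%, 21.2%, 1.90% and 8.29%. Microglia, the lineage with the lowest Ndrg1, had thinned shares of 0.287%, 0.263%, 0% and 0.848% in the same order, and the 0 of 206 cells allows up to 1.78%. In CPM, control macrophages were above control microglia, which stood at 1.76 in WT and 0.604 in Nr4a1-/-. Laser macrophages were further above laser microglia, which stood at 4.72 and 2.97 CPM. These microglial values came from 5 and 18 UMIs in WT control and laser and 1 and 2 UMIs in Nr4a1-/-.
The macrophages compared were not the same cells in laser and control. Clusters made without these genes split them into 3 main sets. Cluster 5, led by Cxcl2, Ccl7, Ccl2 and Ccr2, held 186 of 383 gated macrophages in WT laser and 72 of 205 in Nr4a1-/- laser, but 10 of 295 and 1 of 158 in the controls. Clusters 6 and 9, the second led by Ccl8, Lyve1, F13a1 and Folr2 as resident perivascular macrophages are, held most control macrophages. Ndrg1 was 72.5 CPM in cluster 5 in WT laser and 65.8 CPM in Nr4a1-/- laser. In cluster 9 it went from 5.60 CPM (2.25 to 11.5) in WT control to 29.7 CPM (20.1 to 42.5) in WT laser, without overlap. In cluster 9 of the Nr4a1-/- libraries it was 7.12 CPM (1.94 to 18.2) in control and 18.2 CPM (7.33 to 37.5) in laser, with overlap. In cluster 6 it was 1.29 CPM in WT control from 1 UMI and 33.3 CPM in WT laser from 20 UMIs, while neither Nr4a1-/- library had a UMI. With clusters in place of the gate, which leaves out cluster 5 because it could not be named, the macrophage ratio was 3.98 (2.33 to 7.07) in WT and 2.90 (1.06 to 8.07) in Nr4a1-/-. With thinned cells the Nr4a1-/- ratio was 3.88 (0.802 to 36.9), with an interval across 1.
Ndrg1 in dendritic cells differed between the subsets. cDC1 stood at 23.6 CPM without and 82.2 with laser in WT, and 14.9 and 47.3 in the same order in Nr4a1-/-. Laser was higher in both genotypes, 3.49-fold (2.06 to 6.25) and 3.18-fold (1.37 to 7.97). By clusters, where a set led by the cycling genes Top2a and Mki67 counted with cDC1, the ratios were 1.85 in WT and 0.933 in Nr4a1-/-, the latter turned in direction, and with thinned cells the Nr4a1-/- ratio of 5.46 had an interval across 1. cDC2 stood at 94.9 and 94.5 CPM in WT control and laser, a ratio of 0.996 (0.746 to 1.34). In Nr4a1-/- cDC2 it was 28.3 CPM in control and 53.3 in laser, a ratio of 1.89 (1.02 to 3.55), and 1.47 (0.732 to 2.99) with the strict gate. The Nr4a1-/- control was the low library here, at 0.298 of the WT control level (0.171 to 0.498). Migratory dendritic cells of WT laser, 46 cells that had no control to compare with, held 152 CPM (122 to 188).
Neutrophils went the other way in WT. They stood at 105 CPM (control) and 43.3 CPM (laser) in WT and 69.4 and 38.3 CPM in Nr4a1-/-, with ratios of 0.412 (0.239 to 0.686) and 0.551 (0.163 to 1.49). WT laser was below WT control in both neutrophil clusters, at 102 and 41.5 CPM in cluster 14 and 122 and 47.7 CPM in cluster 16. The cluster 16 values came from 16 control and 47 laser cells and are given without intervals. Classical monocytes held 59.6 and 64.0 CPM in WT control and laser and 49.5 and 77.4 CPM in Nr4a1-/-, where the ratio of 1.56 (1.09 to 2.22) was called, and 1.18 (0.740 to 1.86) with the strict gate. B cells, at 8.15 and 15.9 CPM in WT, had a ratio of 1.95 (1.17 to 3.24), which by clusters was 1.48 (0.882 to 2.44). Their 4.81 and 15.6 CPM in Nr4a1-/- rested on 11 and 7 UMIs.

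**Figure D2:**
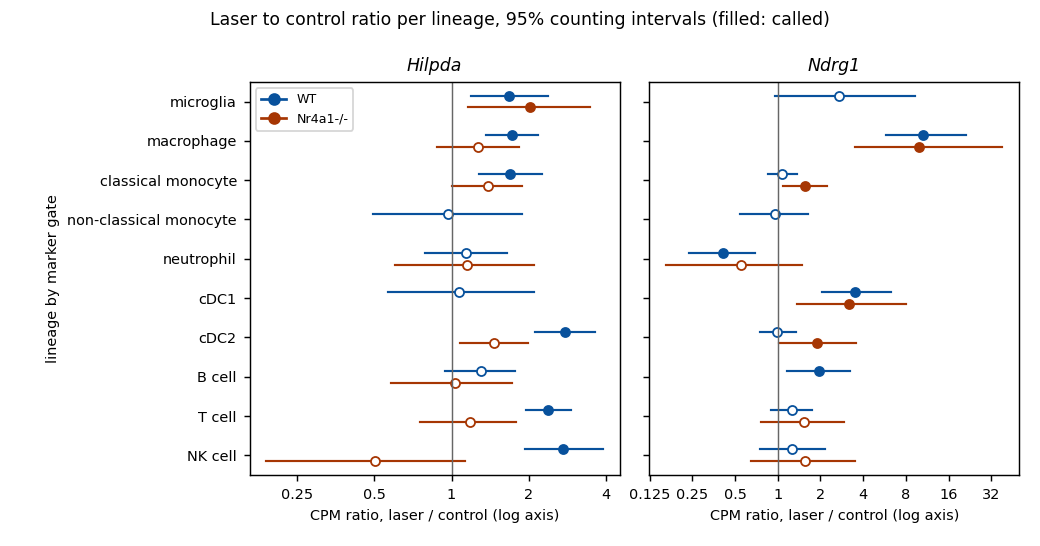
Laser to control CPM ratio of Hilpda and Ndrg1 (log axis) by lineage, with WT in blue, Nr4a1-/- in brown, filled points for called genes and lines for 95% counting intervals. Ndrg1 lies far right of 1 in macrophages at 10.5 and 9.83 and left of 1 in WT neutrophils at 0.412, while Hilpda lies right of 1 in WT cDC2, T cells and NK cells at 2.75, 2.39 and 2.72.

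Hilpda, the inhibitor of lipid droplet lipolysis, was higher after laser in the most WT lineages of any member. In cDC2 it stood at 93.4 and 257 CPM in the WT libraries, control first, and 120 and 176 CPM in the Nr4a1-/- ones. WT laser was above the other 3 libraries. The ratio was 2.75 (2.12 to 3.63) in WT and 1.46 (1.08 to 1.99), not called, in Nr4a1-/-. NK cells held 30.4 CPM without and 82.6 with laser in WT, and 45.1 and 22.7 in the same order in Nr4a1-/-, the last from 7 UMIs. Again WT laser was the high library, with a ratio of 2.72 (1.93 to 3.88) in WT and 0.503 (0.190 to 1.13) in Nr4a1-/-. T cells held 39.5 CPM (control) and 94.2 CPM (laser) in WT and 48.0 and 56.7 CPM in Nr4a1-/-. Their ratio was 2.39 (1.95 to 2.93) in WT and 1.18 (0.757 to 1.79) in Nr4a1-/-.
The T cell ratio was smaller without 1 small cluster. Cluster 24, led by Cd163l1, Trdc, Il23r and Il17a, genes of gamma-delta T cells that make interleukin 17, held 10 gated T cells in WT control and 49 in WT laser, and 4 in each Nr4a1-/- library. These cells had the highest Hilpda of the 5 clusters in WT, at 225 CPM (126 to 371) in control and 514 CPM (441 to 595) in laser. They gave 178 of the 363 Hilpda UMIs of WT laser T cells. Without them, a choice made after these values were seen, the WT ratio was 1.47 (1.16 to 1.86), above 1 but short of the fold for a call. In the other large T cell clusters the WT values overlapped between libraries: 77.2 and 57.1 CPM in cluster 4, led by Ccl5 and Cd8b1, 18.2 and 13.6 CPM in cluster 8, 17.4 and 21.1 CPM in cluster 10, and 73.3 and 109 CPM in cluster 15, led by Ctla4 and Icos. The share of thinned T cells with a Trdc UMI was 4.11% (2.62 to 6.10) in WT control and 7.77% (5.73 to 10.3) in WT laser.
In WT the ratios of microglia, macrophages and classical monocytes were smaller than those of cDC2, NK cells and all gated T cells. Microglia held 17.9 and 29.9 CPM in the WT libraries, control first, and 19.9 and 40.1 CPM in the Nr4a1-/- ones, and they were the only lineage with Hilpda called higher in both genotypes, at 1.67 (1.19 to 2.37) and 2.01 (1.16 to 3.45). With thinned cells these were 1.202 (0.598 to 2.46) and 1.31 (0.375 to 4.30), so neither call held. The Nr4a1-/- call was kept in 4 of 8 alternatives. Macrophages held 44.1 and 75.7 CPM in WT control and laser, a ratio of 1.72 (1.37 to 2.18), and 51.0 and 64.8 CPM in Nr4a1-/-, a ratio of 1.27 (0.881 to 1.83). By cluster, cluster 9 went from 15.99 CPM (9.77 to 24.7) to 46.6 CPM (34.2 to 62.0) in WT, while cluster 6 had 91.4 CPM in WT control and 66.6 CPM in WT laser. In macrophages whose cluster bore the same name the WT ratio was 1.204 (0.887 to 1.63), so that call was lost. It was kept in 7 of 10 alternatives and also ended by clusters and by the mean of per-cell CPM. Classical monocytes held 35.3 and 59.6 CPM in WT, a ratio of 1.69 (1.28 to 2.25), and 66.4 and 91.7 CPM in Nr4a1-/-, a ratio of 1.38 (1.00 to 1.89). Within cluster 3, which held most of them, the WT values were 34.7 and 36.9 CPM, and the WT laser cells in cluster 5 held 82.3 CPM. In monocytes named alike by gate and cluster the WT ratio was 1.41 (1.01 to 1.98). Summed neutrophil markers in classical monocytes were 519 and 155 CPM in WT control and laser and 191 and 404 CPM in Nr4a1-/-, and their part in these ratios was not tested.
In neutrophils Hilpda was high in every library, at 108 CPM without and 124 with laser in WT, and 114 and 130 in the same order in Nr4a1-/-, and no ratio was called. Non-classical monocytes were lowest in both WT libraries, at 14.2 and 13.9 CPM.
The highest Hilpda of the Nr4a1-/- laser library was in MDM-B, a monocyte-derived macrophage set that the study defined on these samples and that was gated here by its marker genes. MDM-B counted 135 WT and 86 Nr4a1-/- cells after laser, but 9 and 7 cells in the controls, so no ratio was formed. Hilpda stood at 226 CPM (206 to 248) there in WT laser, and in Nr4a1-/- laser at 338 CPM (297 to 383), above cDC2 at 176 CPM without overlap. The same cells held 88.0 and 128 CPM of P4ha1 and 228 and 237 CPM of Hif1a, while Ndrg1 at 48.0 and 34.1 CPM was close to the macrophage level. Counting MDM-B with macrophages moved the WT macrophage ratio of Hilpda to 2.41 (1.98 to 2.95).

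**Figure D3:**
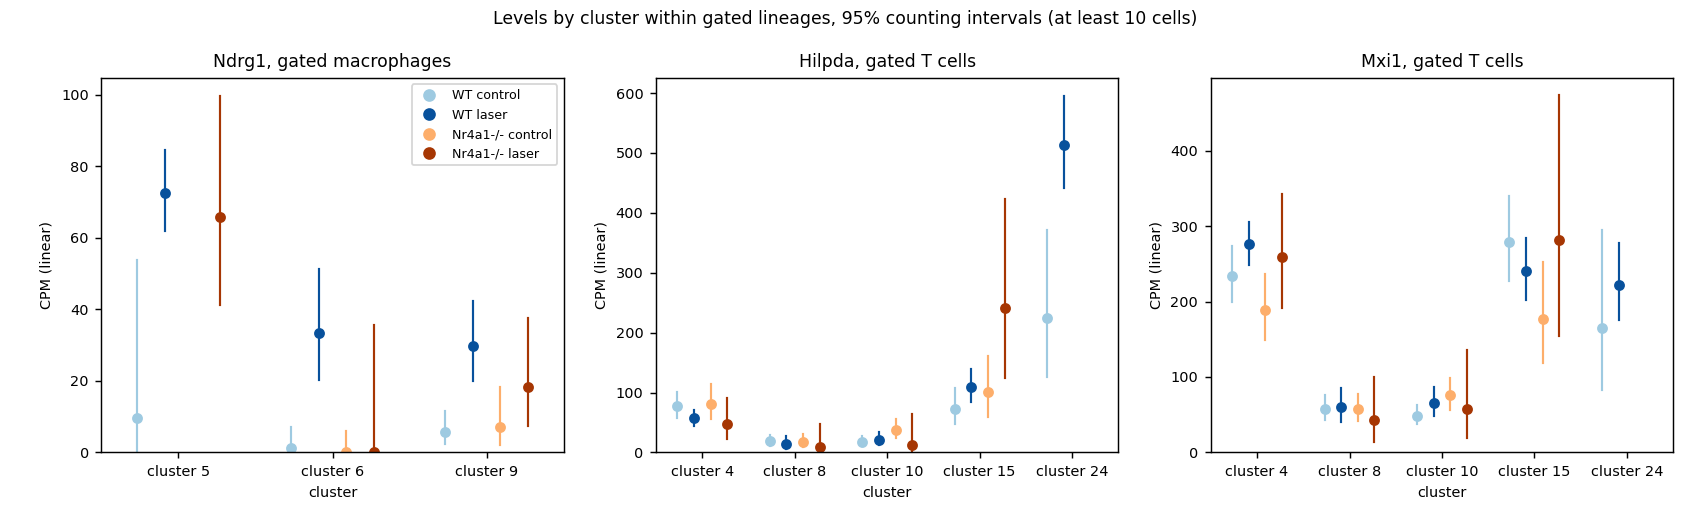
CPM (linear axis) by cluster within gated macrophages for Ndrg1 and within gated T cells for Hilpda and Mxi1, with points coloured by library, lines for 95% counting intervals, and sets under 10 cells left out. Hilpda is highest in cluster 24, at 225 CPM in WT control and 514 CPM in WT laser, and Ndrg1 in cluster 5, at 72.5 CPM in WT laser.

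Mxi1, the Max partner that opposes Myc, moved in opposite directions in dendritic cells and T cells. In cDC1 it stood at 218 CPM (control) and 103 CPM (laser) in WT and 245 and 105 CPM in Nr4a1-/-. Both controls were high and both laser libraries low, and the ratios were 0.473 (0.368 to 0.606) and 0.427 (0.296 to 0.605). Mxi1 was thus called lower, and Ndrg1 higher, in cDC1 of both genotypes. In cDC2 it was 90.5 and 47.0 CPM in WT, a ratio of 0.519 (0.371 to 0.729), and 32.5 and 35.6 CPM in Nr4a1-/-, where the ratio was 1.09 (0.556 to 2.12). Here the WT control was the high library. By clusters the WT ratio in cDC2 was 0.784 (0.584 to 1.07), which ended the call.
T cells held 118 and 180 CPM in the WT libraries, control first, and 104 and 168 CPM in the Nr4a1-/- ones, with ratios of 1.52 (1.34 to 1.72) and 1.61 (1.25 to 2.07). The clusters again differed more than the libraries did. Clusters 4, 15 and 24 held 165 to 279 CPM in the WT libraries, and clusters 8 and 10, both led by Lef1 of naive T cells, 48.9 to 65.9 CPM. Clusters 8 and 10 held 164 and 166 of 565 gated T cells in WT control and 87 and 102 of 589 in WT laser. In cluster 4 the WT values were 235 CPM (200 to 274) and 276 CPM (249 to 306), and those of cluster 15 were 279 and 241 CPM, with overlapping intervals in both. With thinned cells the Nr4a1-/- ratio was 1.02 (0.666 to 1.53) and the WT ratio 1.396 (1.13 to 1.73), so neither was called. The WT call was kept in 3 of 9 alternatives and the Nr4a1-/- call in 6 of 9.
In neutrophils Mxi1 stood at 256 CPM without and 340 with laser in WT, and 376 and 130 in the same order in Nr4a1-/-. The last library was the low one, with ratios of 1.33 (1.06 to 1.67), not called, in WT and 0.347 (0.195 to 0.579) in Nr4a1-/-. Only 51 neutrophils with a median of 1689 UMIs gave the low value, from 17 Mxi1 UMIs. The makeup of the gated neutrophils also differed: cluster 14, led by Retnlg beside S100a8 and S100a9, held 128 of 144 control and 62 of 110 laser cells in WT, and 79 of 86 control and 18 of 51 laser cells in Nr4a1-/-. Mxi1 in cluster 14 was 270 and 463 CPM in WT and 385 and 233 CPM in Nr4a1-/-. In cluster 16 it was 178 and 159 CPM in WT and 307 and 88.3 CPM in Nr4a1-/-. Cluster 16 held 16 and 47 gated neutrophils in the WT libraries, control first, and 7 and 31 in the Nr4a1-/- ones. Values from the smaller of these sets rest on few cells and are given without intervals, so they do not show a change within a cluster. The share of thinned neutrophils with a Retnlg UMI was 84.2% (control) and 52.3% (laser) in WT and 90.4% and 44.4% in Nr4a1-/-, and the part of this shift in the Mxi1 and Ndrg1 values was not tested.

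Hif1a itself was called only in WT microglia. They held 187 and 281 CPM in the WT libraries, control first, and 167 and 224 CPM in the Nr4a1-/- ones. Laser was above control in both genotypes without overlap in WT, with ratios of 1.504 (1.35 to 1.67) and 1.35 (1.096 to 1.65). The WT ratio lay on the 1.5-fold limit, and scaling by the median of gene ratios took it to 1.47 (1.32 to 1.63). The WT call was kept in 5 of 8 alternatives and also ended in both settings that used clusters. The overlapping Gm15283 was also above control in microglia, at 51.6 and 73.1 CPM in WT and 21.1 and 57.9 CPM in Nr4a1-/-. In the other 9 WT lineages the Hif1a ratio was between 0.742 in cDC1 and 1.09 in macrophages.
P4ha1, which prepares collagen for folding, was below control in microglia, where it was highest. Values were 147 CPM without and 106 with laser in WT, and 163 and 107 in the same order in Nr4a1-/-. Both controls were high, with ratios of 0.723 (0.629 to 0.831), short of the fold for a call, and 0.656 (0.498 to 0.853), called lower, which with thinned cells was 0.813 (0.495 to 1.30). In WT macrophages the ratio was 0.769 (0.640 to 0.926), also not called. NK cells held 62.8 and 43.7 CPM in WT, a ratio of 0.696 (0.505 to 0.955), and 57.2 and 94.0 CPM in Nr4a1-/-, a ratio of 1.64 (1.01 to 2.64) from 52 and 29 UMIs. That call ended under 5 alternatives, with ratios of 1.296 to 1.63.
In microglia the immediate-early genes of tissue dissociation moved too. Of 14 such genes 12 were lower after laser in WT and 11 in Nr4a1-/-, with Jun at 3423 and 1039 CPM and Egr1 at 3270 and 866 CPM in WT control and laser. Their summed level was 24380 CPM (control) and 11790 CPM (laser) in WT and 27690 and 13750 CPM in Nr4a1-/-. Summed fibroblast markers in microglia also differed, at 68.5 CPM (control) and 1.05 CPM (laser) in WT and 0 and 92.0 CPM in Nr4a1-/-. The part of both in the microglial values of Hif1a, Hilpda and P4ha1 was not tested.
Higd1a, which binds respiratory complexes, was called in 2 pairs. cDC1 held 65.2 and 105 CPM in WT, a ratio of 1.61 (1.14 to 2.31), and 92.6 and 64.7 CPM in Nr4a1-/-, a ratio of 0.699 (0.421 to 1.13). Microglia held 37.2 and 42.5 CPM in WT and 42.2 and 66.8 CPM in Nr4a1-/-, where the ratio was 1.58 (1.06 to 2.33). The cDC1 call was kept in 7 of 8 alternatives and ended with thinned cells, at 0.604. The microglial call was kept in 3 of 8, and with the strict gate its ratio was 0.966. T cells came near a call in WT, at 77.0 and 112 CPM and a ratio of 1.45 (1.25 to 1.70).
Ero1l, the endoplasmic reticulum oxidase, was called in no lineage. Its ratio came closest in WT T cells, at 39.2 and 57.6 CPM and 1.47 (1.18 to 1.83), against 0.812 (0.468 to 1.34) in Nr4a1-/-. WT neutrophils held 27.1 and 47.5 CPM, a ratio of 1.75 with an interval across 1 (0.885 to 3.54).
Bnip3, Egln3 and Ankrd37 were too rare for most lineages. Bnip3 had enough UMIs in 6 WT and 3 Nr4a1-/- lineages and was not called, with neutrophil ratios of 0.550 (0.270 to 1.06) in WT and 0.693 from 14 and 4 UMIs in Nr4a1-/-. Egln3 had enough in 4 and 1, and was highest outside neutrophils in laser T cells, at 12.2 CPM in WT and 15.1 CPM in Nr4a1-/-, against 8.36 and 5.28 CPM in the controls. Ankrd37 was called in WT B cells alone, at 6.52 and 13.4 CPM and a ratio of 2.05 (1.17 to 3.62), which by clusters was 1.501 (0.820 to 2.70). In Nr4a1-/- B cells it was 12.7 CPM in control and 6.68 CPM in laser, the latter from 3 UMIs. Ankrd37 had no UMI in WT control NK cells, which allows up to 1.98 CPM.

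**Figure D4:**
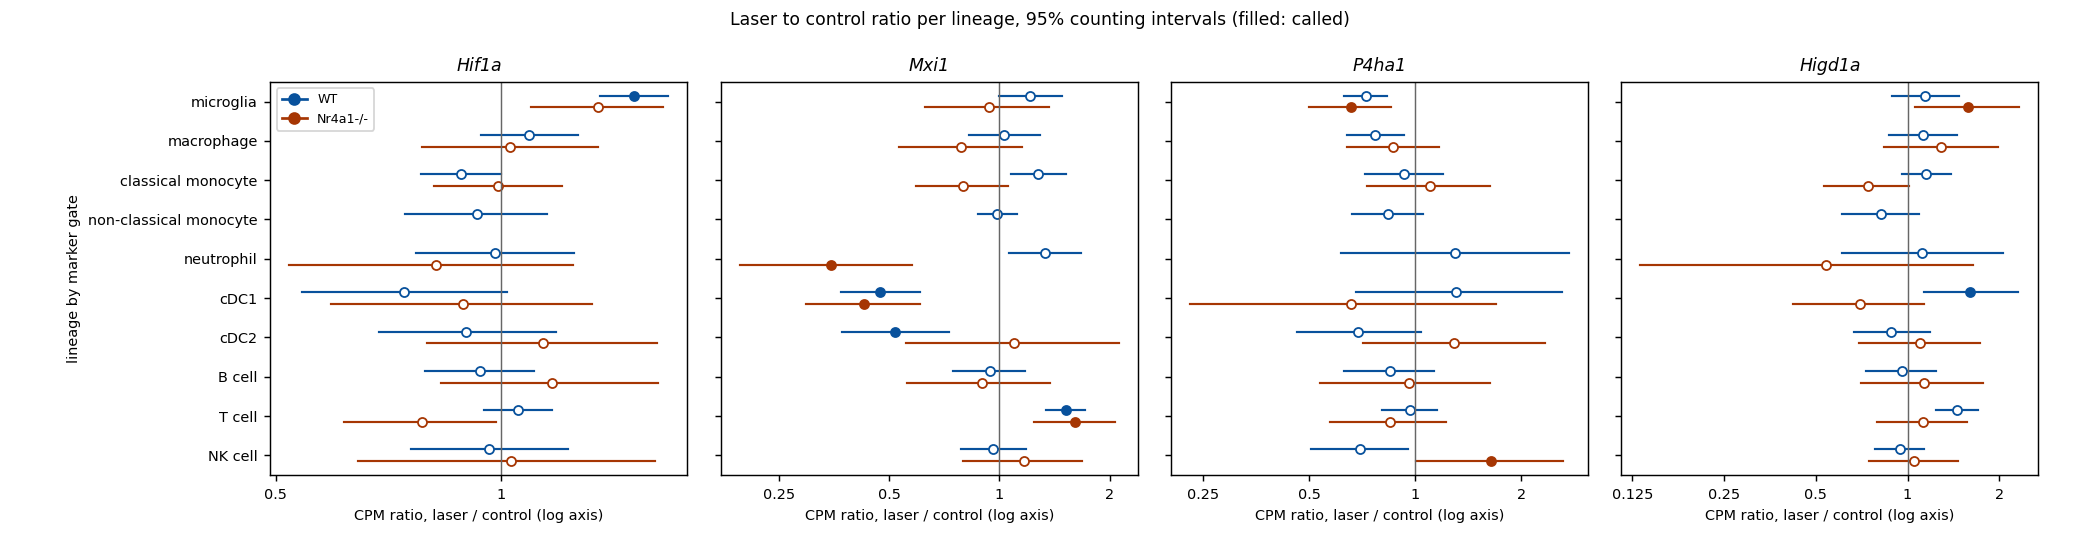
Laser to control CPM ratio (log axis) of Hif1a, Mxi1, P4ha1 and Higd1a by lineage, with WT in blue, Nr4a1-/- in brown, filled points for called genes and lines for 95% counting intervals. Mxi1 lies left of 1 in cDC1 at 0.473 and 0.427 and right of 1 in T cells at 1.52 and 1.61, while Hif1a stays between 0.742 and 1.504 in WT.

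The laser ratios of the genotypes were set against each other where both had enough UMIs, as the Nr4a1-/- ratio over the WT ratio with a Wald interval on the log scale. For Hilpda this was 0.531 (0.358 to 0.789) in cDC2, 0.495 (0.315 to 0.778) in T cells and 0.185 (0.0777 to 0.441) in NK cells. Of 58 pairs compared over all members, 9 had an interval below 1 and 2 above. The same count was not made over all genes, so it is not a result about these genes. In those 3 Hilpda lineages, as gated, the WT ratio exceeded that of Nr4a1-/- by more than counting error, and animal-to-animal spread was not measured. The T cells included cluster 24, with 10 control and 49 laser cells in WT and 4 in each Nr4a1-/- library. Without it the WT ratio given above had an interval that overlapped that of Nr4a1-/-. The comparison of genotypes was not repeated without it. In microglia the Hilpda value was 1.21 (0.658 to 2.21) and in macrophages 0.738 (0.487 to 1.12), with intervals across 1. For Ndrg1 it was 0.911 (0.353 to 2.35) in cDC1, with an interval too wide to show whether the genotypes responded alike. For Mxi1 it was 0.903 (0.594 to 1.37) in cDC1 and 1.06 (0.808 to 1.40) in T cells, but 0.261 (0.1497 to 0.453) in neutrophils and 2.11 (1.05 to 4.23) in cDC2. P4ha1 had 2.36 (1.36 to 4.08) in NK cells and Higd1a 0.435 (0.245 to 0.773) in cDC1. The others off 1 were Mxi1 at 0.623 (0.448 to 0.864) and Higd1a at 0.643 (0.449 to 0.919) in classical monocytes, and Ero1l at 0.553 (0.323 to 0.947) and Hif1a at 0.744 (0.581 to 0.955) in T cells. Depth differed as well, since cells of the Nr4a1-/- laser library were shallow, at a median of 2403 UMIs per NK cell and 2729 per T cell against 4982 and 5997 in WT laser.

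Other genes of the HIF pathway were read from 3 lists chosen for their known role. The 13 regulators of HIF gave 99 tested gene and lineage pairs in WT, of which 7 were higher and 13 lower after laser, and 81 in Nr4a1-/-, of which 9 were higher and 4 lower. Over the same lineages 14% of all tested pairs were called in WT and 14.1% in Nr4a1-/-, and of the regulators 20.2% and 16% were. Of these, Cited2, which competes with HIF for its coactivator, was higher in classical monocytes at 2.25 (1.79 to 2.85) in WT and 1.82 (1.30 to 2.55) in Nr4a1-/-. The same gene was lower in microglia, at 0.548 (0.502 to 0.597) and 0.355 (0.291 to 0.430), and in Nr4a1-/- macrophages, at 0.502 (0.428 to 0.588). Rbx1 and Elob, subunits of the ligase complex that marks HIF for degradation, were higher in neutrophils, Rbx1 at 2.26 in WT and 2.95 in Nr4a1-/- and Elob at 1.55 and 2.25. Arnt was higher in cDC2 at 1.60 (1.01 to 2.64) and 2.07 (1.24 to 3.51).
Egln1, the main oxygen-sensing hydroxylase of HIF, was called lower in 9 of 10 WT lineages and 2 of 9 Nr4a1-/- lineages. It was singled out after its values were seen. Its ratio was between 0.289 in cDC2 and 0.664 in T cells over the 10 WT lineages. In T cells it stood at 46.1 and 30.6 CPM in the WT libraries, control first, and 39.4 and 20.8 CPM in the Nr4a1-/- ones, with the controls high in both genotypes. Over the Nr4a1-/- lineages the ratio ran from 0.430 in microglia to 1.21 in neutrophils, the latter from 2 and 1 UMIs.
The 39 other HIF targets gave 219 pairs in WT with 34 higher and 19 lower, and 159 in Nr4a1-/- with 15 higher and 25 lower, which is 24.2% and 25.2% of them beside the 14% and 14.1% of all genes. Plin2, which coats the lipid droplets on which Hilpda acts, was called higher in 7 of 10 WT lineages and 5 of 9 Nr4a1-/- lineages. In macrophages it stood at 247 CPM without and 536 with laser in WT, and 226 and 393 in the same order in Nr4a1-/-, with ratios of 2.17 (1.97 to 2.38) and 1.73 (1.48 to 2.03). In B cells its ratios were 2.49 (1.84 to 3.38) and 5.09 (3.31 to 7.83). Bhlhe40, a repressor of transcription, was higher in microglia at 2.43 and 4.92, in T cells at 2.07 and 2.36 and in neutrophils at 2.05 and 4.25. The chemokine receptor Cxcr4 was higher in macrophages at 2.37 and 1.64, and Bhlhe41 was lower there at 0.309 and 0.273. The lactate exporter Slc16a3 was lower in neutrophils, at 0.524 (0.445 to 0.615) in WT and 0.348 (0.238 to 0.495) in Nr4a1-/-.
Vegfa, singled out as the growth factor of this disease, was read in NK cells at 164 CPM (control) and 232 CPM (laser) in WT and 252 and 133 CPM in Nr4a1-/-. The ratios were 1.41 (1.202 to 1.67), not called, in WT and 0.527 (0.369 to 0.738), called lower, in Nr4a1-/-. Vegfa was also called higher in WT cDC2, at 4.22 (1.71 to 13.5), against 0.809 (0.348 to 1.79) in Nr4a1-/- cDC2. In WT non-classical monocytes it was called lower, at 0.528 (0.316 to 0.855). In macrophages Vegfa was 2.73 CPM in WT control and 22.6 in WT laser, a ratio of 8.30 (3.68 to 23.2), and 0.823 and 17.2 CPM in Nr4a1-/- from 1 and 17 UMIs.
Of the glycolytic enzymes called, most were higher. They gave 129 pairs in WT with 19 higher and 3 lower, and 109 in Nr4a1-/- with 22 higher and 2 lower. That is 17.1% and 22% called, where of all genes 7.77% were higher and 6.23% lower in WT and 7.76% and 6.33% in Nr4a1-/-. Their median exceeded that of all genes in 8 of 10 WT lineages and 9 of 9 Nr4a1-/- lineages. In Nr4a1-/- microglia 8 of 12 were higher, with Ldha at 129 and 208 CPM. Hexokinase Hk2 was higher in cDC1 at 1.95 (1.43 to 2.71) and 1.85 (1.01 to 3.40), and Pgam1 in cDC2 at 1.57 (1.17 to 2.15) and 1.85 (1.32 to 2.59). The members, by comparison, had 13 higher and 3 lower of 83 pairs in WT and 8 and 3 of 62 in Nr4a1-/-, or 19.3% and 17.7%.
The immediate-early and stress list gave 20 higher and 20 lower of 132 pairs in WT, and 24 and 37 of 124 in Nr4a1-/-. These are 30.3% and 49.2% of its pairs, beside 14% and 14.1% of all tested pairs. In T cells 8 of 14 were higher in each genotype, with Fosb at 134 and 301 CPM in WT control and laser and 66.8 and 299 CPM in Nr4a1-/-, and 2, Hspa1a and Hspa1b, were lower in Nr4a1-/-. Its part in the T cell values of Hilpda and Mxi1 was not tested.

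The patterns of the 10 genes over lineages were only loosely alike. Over 39 lineage and library sums, which share cells' depth and repeat each lineage, Pearson's r on log2(CPM + 10) was 0.702 for Ero1l and Mxi1, 0.523 for Hilpda and Ndrg1 and -0.527 for P4ha1 and Ndrg1. Among the 9600 genes with enough UMIs, the nearest to Ndrg1 were S100a11 at 0.837, Anxa2 at 0.818 and S100a6 at 0.815. Nearest to Hilpda were AA467197 at 0.781, Calm3 and St18. P4ha1 was nearest to Armc5, Serinc1 and the microglial receptor Cx3cr1 at 0.802, and Higd1a to Tram1, Acot7 and Runx3 at 0.846. Mxi1 was nearest to Dock5 at 0.841, Itgal and Pglyrp1. The gene nearest to Hif1a was Gm15283 at 0.880, the antisense gene that spans it, followed by Znrf1 at 0.869 and Myo9b at 0.756. Ero1l had Airn and Igf2r at 0.707 each, a pair that overlap each other on opposite strands.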

How the data were processed

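The authors aligned and counted 3′ single-cell libraries with Cell Ranger 7.0.1 on mm10, per the submitters' processing notes, and deposited counts, as whole UMIs per gene and antibody tag, in 1 matrix per pooled library. The labels name the v2 kit and the methods v3. Intron and strand settings are not given in the sources used here. Of 11624 barcodes, 11223 remained after leaving out those under 200 or over 5000 detected genes or over 15% mitochondrial. A cell took the lineage with the highest marker score if it had 3 or more of its markers and no other score over 0.85 of it. The scoring rule and the minimum of 30 cells per comparison were set after seeing the data. No doublet caller was run, and a strict gate (0.6) stood in. Leiden clusters (scanpy 1.11.5, 34 clusters) were made without the HIF genes, and 93.9% of 8578 cells named both ways had the same name. UMIs were summed per lineage and library. CPM has exact Poisson intervals, ratios exact conditional binomial ones, and shares exact Clopper-Pearson ones. UMIs of a cell are not independent replicates of the animals. The calling was also run on simulated Poisson counts with known folds. Such counts hold no spread between cells or animals, so that run does not test the calls against animals. Members and lists were chosen with earlier results of these data known. List genes were named if called the same way in both genotypes, up to 5 per lineage, ranked by the smaller of the changes, and genes of like pattern as the 3 with the highest r, among those with 500 UMIs or more. Antibody libraries, whose label fields for genotype and treatment go against their titles, were used only beside the gate.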

Additional observations from a re-analysis of the deposited data

Results flagged for a closer look

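In 2 pairs the interval of the laser to control ratio lay on opposite sides of 1 in the genotypes. P4ha1 in NK cells had a ratio of 0.696 in WT and 1.642 in Nr4a1-/-. Mxi1 in neutrophils had a ratio of 1.33 in WT and 0.3465 in Nr4a1-/-. With 1 library per group the difference was not tested against animals, and the Nr4a1-/- laser library held 109 NK cells and 51 neutrophils.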

How the results depend on the processing

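With 1 library per group, animals could not be left out, and no paired analysis was possible because each group held 1 library and no test was run. Depth limited the Nr4a1-/- laser library most: Bnip3, Egln3 and Ankrd37 had under 20 UMIs in most of its comparisons. Of 223 alternative ratios of called members, 204 stayed within their counting interval, 16 moved and 3 turned: Higd1a in Nr4a1-/- microglia was 0.966 with the strict gate, Higd1a in WT cDC1 was 0.604 with cells thinned to 2000 UMIs, and Ndrg1 in Nr4a1-/- cDC1 was 0.933 by clusters. The cause of these changes was not tested, beyond the cells that each alternative takes out or adds.

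Over all lineages a 2-fold rule called 8 gene and lineage pairs in WT against 16, and in Nr4a1-/- 5 against 11, where the strict gate also called 5 and thinning 4. Alternatives that moved the count of called members within a lineage were as follows. Median-of-ratios scaling gave 1 in WT microglia, 2 in WT neutrophils and 1 in WT T cells. Thinning gave 1 in WT microglia, cDC2 and T cells, 1 in Nr4a1-/- cDC1, 2 in Nr4a1-/- macrophages and WT neutrophils, and 0 in WT B cells and in Nr4a1-/- microglia, cDC2, T cells and NK cells. Without the upper limit on detected genes there were 2 in WT classical monocytes, WT neutrophils and Nr4a1-/- cDC2, 1 in WT T cells and 0 in Nr4a1-/- NK cells. The strict gate gave 4 in WT T cells, 2 in WT NK cells, 1 in Nr4a1-/- microglia, and 0 in Nr4a1-/- macrophages, classical monocytes, T cells and NK cells. Clusters in place of the gate gave 4 in WT neutrophils, 2 in WT classical monocytes, 1 in WT microglia, macrophages, cDC2 and B cells and in Nr4a1-/- B cells, and 0 in Nr4a1-/- macrophages and NK cells. In Nr4a1-/- macrophages fewer than 20 Ndrg1 UMIs remained in this setting, at a ratio of 2.90, and with the strict gate, at 5.13. The 2-fold rule gave 0 in WT microglia and classical monocytes and in Nr4a1-/- classical monocytes, cDC2, T cells and NK cells, and 1 in WT macrophages, cDC2, B cells and T cells and in Nr4a1-/- microglia. Without a minimum of UMIs Nr4a1-/- B cells had 1. Of the alternatives added after seeing the data, cells named alike by gate and cluster gave 1 in WT microglia, macrophages and B cells and 0 in Nr4a1-/- macrophages and NK cells, MDM-B cells counted as macrophages gave 4 in Nr4a1-/- macrophages, and T cells without cluster 24 gave 1 in WT T cells. The 10% mitochondrial limit and the removal of cells with MDM-A markers left each count within 1.5 times.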
